A study of Danio rerio with 4 samples.

Results

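*stat3* and *socs3b* are the 2 genes described here, out of 2543 genes named in at least 1 of the 6 deposited tables of this zebrafish whole-retina RNA-seq series. They were matched by symbol in those tables, after being chosen by their FPKM in injured beside uninjured retina and by the lists that hold them. *stat3* was in 1 table (higher at 12 hr post-injury, hpi), and *socs3b* was in 3 (higher at 12 hpi, at 4 days post-injury, dpi, and at 4 dpi with cyclopamine). Only features that differed from uninjured retina by the authors' own call are in the tables, so being in them is how both genes came to be described and is not a finding. The series has 4 libraries of total RNA, 1 each for uninjured, 12 hpi, 4 dpi, and 4 dpi cyclopamine retina, from wild-type fish of 10 months. The injury was a needle poke, and cyclopamine, an inhibitor of the Hedgehog receptor component Smo, was given in the water at 10 μM for the 4 days after it. The agent of the 4 dpi library without cyclopamine is given as none, so no vehicle-treated library stands beside the treated one. How many fish gave each library is not given in the sources used here. Every difference below is between 1 library and 1 other, with no replicate check and no test.

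Stat3 is a latent transcription factor of the JAK-STAT pathway. Cytokines of the interleukin-6 family bind receptors that share the signal-transducing chain gp130, encoded by *il6st*, the Janus kinases on that chain phosphorylate Stat3, and the phosphorylated protein dimerizes through its SH2 domain and enters the nucleus. *socs3b* is a zebrafish copy of SOCS3, which in mammals is switched on by STAT3. SOCS3 binds gp130 through its own SH2 domain, inhibits the kinases, and shuts the pathway off. In the zebrafish retina, Stat3 is known as a factor of Müller glia (MG) that respond to injury.

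The listed *stat3* transcript (ENSDART00000080854 of gene ENSDARG00000022712) stood at 7.84 FPKM before injury and at 79.5 FPKM at 12 hpi. FPKM are fragment counts scaled for transcript length and library size, so levels of different genes can be compared per length. The 12 hpi level was 10.1 times the uninjured one, a log2 ratio of 3.33 after adding 0.1 FPKM to both values, which is the scale of every log2 ratio given here. This transcript is 1 of 3 annotated for the gene, and the other transcripts were in neither 12 hpi table. *stat3* was in none of the 4 dpi and cyclopamine tables used here, so its level at 4 dpi was not analysed, and its absence there is no measurement of a fall.

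The listed *socs3b* transcript (ENSDART00000037904 of gene ENSDARG00000026611) stood at 2.39 FPKM before injury and at 87.4 FPKM at 12 hpi. The 12 hpi level was 36.6 times the uninjured one, a log2 ratio of 5.14. For the gene as a whole, the uninjured value was again 2.39 FPKM and the 4 dpi value was 28.8 FPKM, 12.1 times the uninjured one and a log2 ratio of 3.54. The *socs3b* RNA was thus high at 12 hpi, lower at 4 dpi, and above uninjured retina at both times. With cyclopamine, *socs3b* was again on the list of higher genes, but that list gives no values, so its level with and without cyclopamine was not compared.

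**Figure D1:**
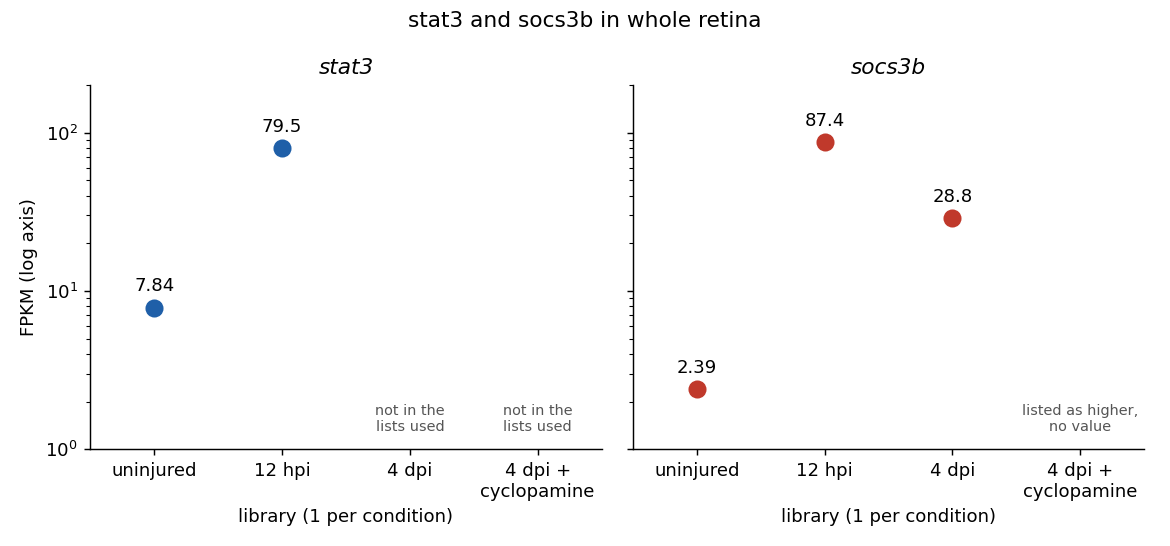
FPKM (log axis) of *stat3* (left) and *socs3b* (right) in each library, 1 point per library; the 12 hpi points are transcripts and the 4 dpi point is the gene. *stat3* goes from 7.84 to 79.5 and *socs3b* from 2.39 to 87.4 at 12 hpi and 28.8 at 4 dpi; grey words mark libraries without a value.

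An absolute log2 ratio of at least 1 was reached by 100% of the genes listed as higher at 12 hpi and 99.5% of those listed as lower, and by 100% in either direction at 4 dpi, so both members shared it with nearly every listed gene.

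The relation of the 2 levels differed between the libraries. In uninjured retina the *stat3* transcript was 3.29 times the *socs3b* transcript in FPKM, and at 12 hpi it was 0.910 times, with the 2 listed transcripts at nearly the same RNA level. Other transcripts of both genes have no value at 12 hpi, and protein was not measured in these libraries. Among the 386 genes listed as higher at 12 hpi, *socs3b* was at rank 26 and *stat3* at rank 34 by level, and the median level was 9.88 FPKM. By log2 ratio, *socs3b* was at rank 55 (the top 14.2%) and *stat3* at rank 188 (the top 48.7%), with a median log2 ratio of 3.25 over all 386. Of the genes above them, 32 and 116 had their listed transcript at 0 FPKM in uninjured retina, where the added 0.1 FPKM sets the ratio. Others lay just above 0, such as *rps28* at 0.00153 FPKM, and there the added value largely sets the ratio as well. A listed transcript at or near 0 FPKM need not mean a gene without RNA. For the whole gene, *rps28* had 68.1 FPKM in uninjured retina in the 4 dpi comparison. Among genes whose listed transcript had at least 1 FPKM in uninjured retina, *socs3b* was at rank 7 and *stat3* at rank 28 of 194.

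The genes next to *socs3b* by ratio at 12 hpi were *cltcb* (listed transcript from 0 to 3.45 FPKM) just above and *metap1* (listed transcript from 0 to 3.39 FPKM) just below. Next to *stat3* were *itpk1a*, at 0.0707 and 1.63 FPKM with a log2 ratio of 3.34, and *CABZ01112401.1*, at 8.70 and 86.9 FPKM with 3.31. These neighbours show that a rank by ratio alone sets genes of very different levels side by side. At 4 dpi, *socs3b* was at rank 278 of 893 by log2 ratio (the top 31.1%) and at rank 337 by level. The median over those 893 genes was a log2 ratio of 2.69 and a level of 16.2 FPKM. It stood between *si:dkey-23a13.7* (14.8 and 174.4 FPKM, 3.55) and *col1a2*, a fibrillar collagen chain (1.01 and 12.8 FPKM, 3.53).

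**Figure D2:**
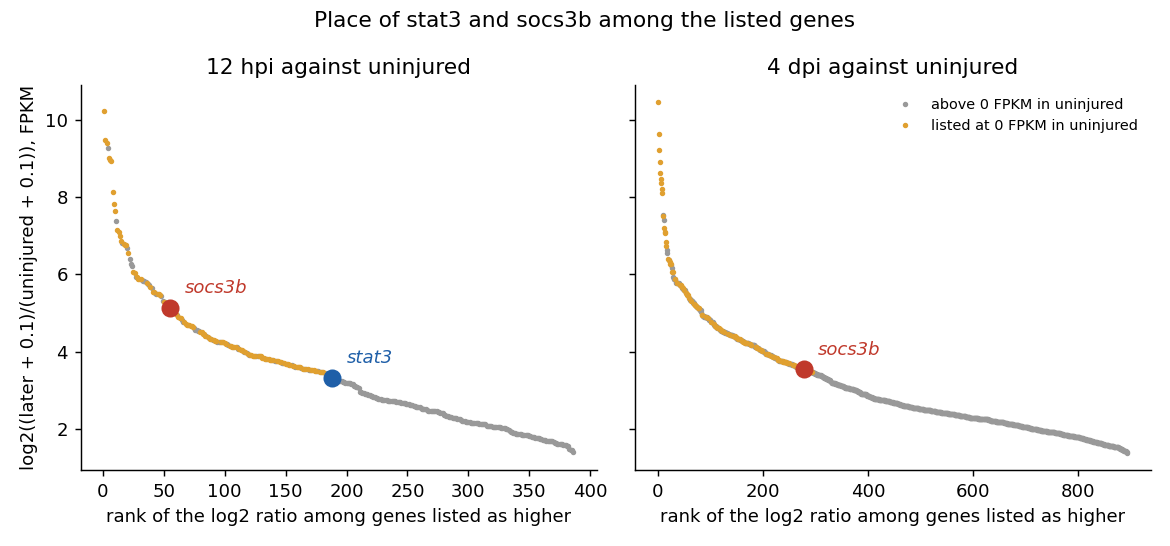
Log2((later + 0.1)/(uninjured + 0.1)) in FPKM against its rank, for the 386 genes listed as higher at 12 hpi (left) and the 893 at 4 dpi (right), 1 small point per gene. Orange points are at 0 FPKM in uninjured retina, for the listed transcript at 12 hpi and for the gene at 4 dpi. *socs3b* (red) is at rank 55 and 278, and *stat3* (blue) at rank 188 at 12 hpi.

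To set 12 hpi beside 4 dpi, the uninjured values of the tables were compared first. Of 118 genes listed as higher at both times, 86 had the same uninjured FPKM in both tables (within a relative difference of 1e-05), among them all 63 genes with 1 annotated transcript. *socs3b* has 2 annotated transcripts, yet its uninjured value for the listed transcript was the same as for the gene. A transcript is still set beside a gene here, and any reads on the other transcript at 12 hpi are not in the value used. *socs3b* at 12 hpi was 3.03 times its 4 dpi level. Over the 53 of the 86 genes with an uninjured value above 0, the median ratio of 4 dpi to 12 hpi FPKM was 1.06 (range 0.263 to 4.80), and 25 were lower at 4 dpi than at 12 hpi. The ratio of *socs3b* was 0.330, and 2 of the 53 genes were lower. They were the complement gene *C7 (1 to many)* with 0.263, and *atf3*, a stress-induced bZIP transcription factor, with 0.325. The uninjured value does not enter this ratio, so leaving out genes at 0 there narrowed the range. Over all 86 genes the ratio ran from 0.176 (*crygm2c*) to 47.7. Further genes at 0 in uninjured retina lay below *socs3b*, among them *crygs4* (0.192), *cryaa* (0.226), and *crygm3* (0.325).

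Other pathway genes listed at both times had ratios nearer to 1 or above it. *junbb* went from 122.9 FPKM at 12 hpi to 65.4 FPKM at 4 dpi, a ratio of 0.532, and *cebpb* from 26.3 to 14.1 FPKM, a ratio of 0.536. *jun* went from 147.1 to 90.9 FPKM, a ratio of 0.618, and *mmp9*, a matrix metalloproteinase, the other way, from 47.8 to 85.7 FPKM, a ratio of 1.79. These ratios compare 2 libraries and have no error, and the genes had first to be listed as higher at both times.

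**Figure D3:**
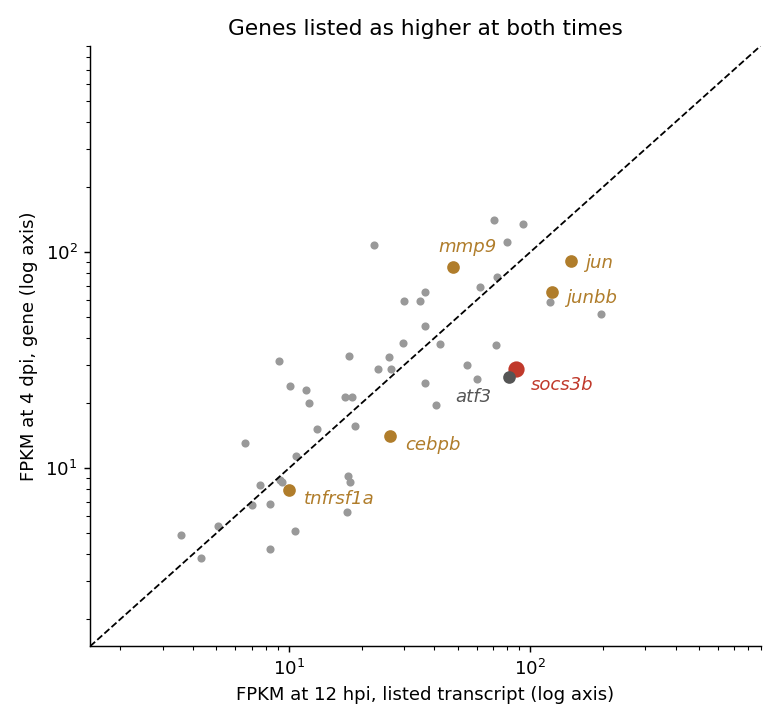
FPKM at 4 dpi (gene) against FPKM at 12 hpi (listed transcript), both on log axes, for the 53 genes listed as higher at both times with the same uninjured value above 0; the dashed line marks equal levels. *socs3b* (red) lies below the line at a ratio of 0.330, beside *atf3* at 0.325, while *mmp9* lies above it at 1.79.

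Among the genes listed in either direction in the same comparisons, those most like each member were then sought by the distance between log2(FPKM + 0.1) values over the libraries with a value. Over uninjured and 12 hpi, the gene nearest to *stat3* was *cish*, another gene of the SOCS family and an inhibitor of cytokine signaling, with 8.38 and 78.3 FPKM and a distance of 0.0986. It was followed by the lincRNA *si:dkey-13m3.1* (7.85 and 71.2 FPKM, 0.159) and *CABZ01112401.1* (0.197). Nearest to *socs3b* over the same libraries were *fosab*, which encodes the AP-1 subunit Fos, with 1.89 and 77.3 FPKM and a distance of 0.363, then *timp2b*, a metalloproteinase inhibitor, with 0.469, and the chemokine *cxcl18b* with 0.578.

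Over uninjured and 4 dpi the nearest to *socs3b* were *gnsb* (2.35 and 27.9 FPKM, 0.0497), *CABZ01073795.1* (0.171), and the complement gene *c7a* (0.178). Over the 3 libraries together they were *atf3* (0.952, 81.8, and 26.6 FPKM, a distance of 1.25), and then the lens crystallins *cryba4* (1.25) and *crybb3* (1.37). Distances over 2 or 3 libraries describe these values only. The shared uninjured library enters all of them.

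The other genes of the pathway were taken from 6 lists of 133 symbols, of which 127 different genes were found in a RefSeq gene table. Without the 2 members, 21 of 125 (16.8%) were listed as higher at 12 hpi and 18 (14.4%) at 4 dpi. For comparison, 1.16% and 2.76% of the 29201 gene identifiers of a name table were listed as higher at those times, and the lists were written with earlier results of these data known, so the shares are not independent of them. Listed as lower was 1 gene at 12 hpi and 0 at 4 dpi, against 0.712% and 1.78% of all identifiers. The same shares of all identifiers stand beside the counts of the single lists below. The median log2 ratio of the pathway genes listed as higher was 3.21 at 12 hpi and 3.12 at 4 dpi, against 3.25 and 2.69 over all genes listed as higher.

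Of 26 ligand genes, 1 was listed. *crlf1a*, whose mammalian counterpart is a partner of the gp130 ligand CLCF1, had 0.659 FPKM in uninjured retina, 43.6 FPKM at 12 hpi, and 29.3 FPKM at 4 dpi. Its log2 ratios were 5.85 and 5.28, above those of both members at 12 hpi and of *socs3b* at 4 dpi, and it was also listed as higher with cyclopamine. The genes of interleukin-6, interleukin-11, and the other ligands searched for were in none of the tables used here.

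Of 30 receptor genes, 3 were listed as higher at 12 hpi and 4 at 4 dpi. *il6st* was listed in both directions at 12 hpi, by different transcripts. The first went from 8.02 to 37.5 FPKM and the other from 4.89 FPKM to 0. Summed, the 2 transcripts had 12.9 and 37.5 FPKM, a log2 ratio of 1.53 in place of 2.21 for the transcript listed as higher. The gene has 3 annotated transcripts and the remaining one has no value here, so the total level of the gp130 gene was not measured. *lepr*, the leptin receptor, which in mammals also acts through STAT3, went from 0.642 to 16.0 FPKM at 4 dpi, and *csf3r*, the receptor of granulocyte colony-stimulating factor, from 1.096 to 16.9 FPKM. *il4r.1*, an interleukin-4 receptor gene, was listed as higher at both times, with 0.604 and 7.88 FPKM for the 12 hpi transcript and 0.518 and 4.97 FPKM for the gene at 4 dpi. The remaining receptor genes listed as higher were *epor*, the erythropoietin receptor, at 12 hpi (0.282 and 2.31 FPKM) and *il21r.1* at 4 dpi (0.622 and 5.90 FPKM).

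Among the 5 Janus kinases, *jak1*, a kinase bound to gp130, went from 19.6 to 86.9 FPKM at 12 hpi, a log2 ratio of 2.14. At 4 dpi the listed kinase was *jak3*, known from lymphoid and myeloid cells, with 0.248 and 2.19 FPKM. The listed STAT genes differed as well between the tables. *stat3* was the STAT gene in the 12 hpi tables, whereas at 4 dpi *stat2* (18.6 and 54.1 FPKM) and *stat6* (1.67 and 10.2 FPKM) were among those listed as higher. Stat2 carries interferon signals and Stat6 those of interleukin-4. Whether either differed between 12 hpi and 4 dpi was not tested, since unlisted genes have no values here.

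Of 25 inhibitor genes, 3 were listed as higher at 12 hpi, and all 3 were of the SOCS family. Beside *socs3b*, *cish* went from 8.38 to 78.3 FPKM (log2 ratio 3.21) and *socs2*, known as an inhibitor of growth hormone signaling, from 22.9 to 71.1 FPKM (1.63). The 3 inhibitors and *stat3* spanned 2.39 to 22.9 FPKM in uninjured retina and 71.1 to 87.4 FPKM at 12 hpi. At 4 dpi, *socs3b* was the SOCS family gene among the listed ones, and *ptpn6*, a phosphatase of blood cells, went from 0.609 to 6.32 FPKM. The related copy *socs3a* was in none of the tables used here.

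**Figure D4:**
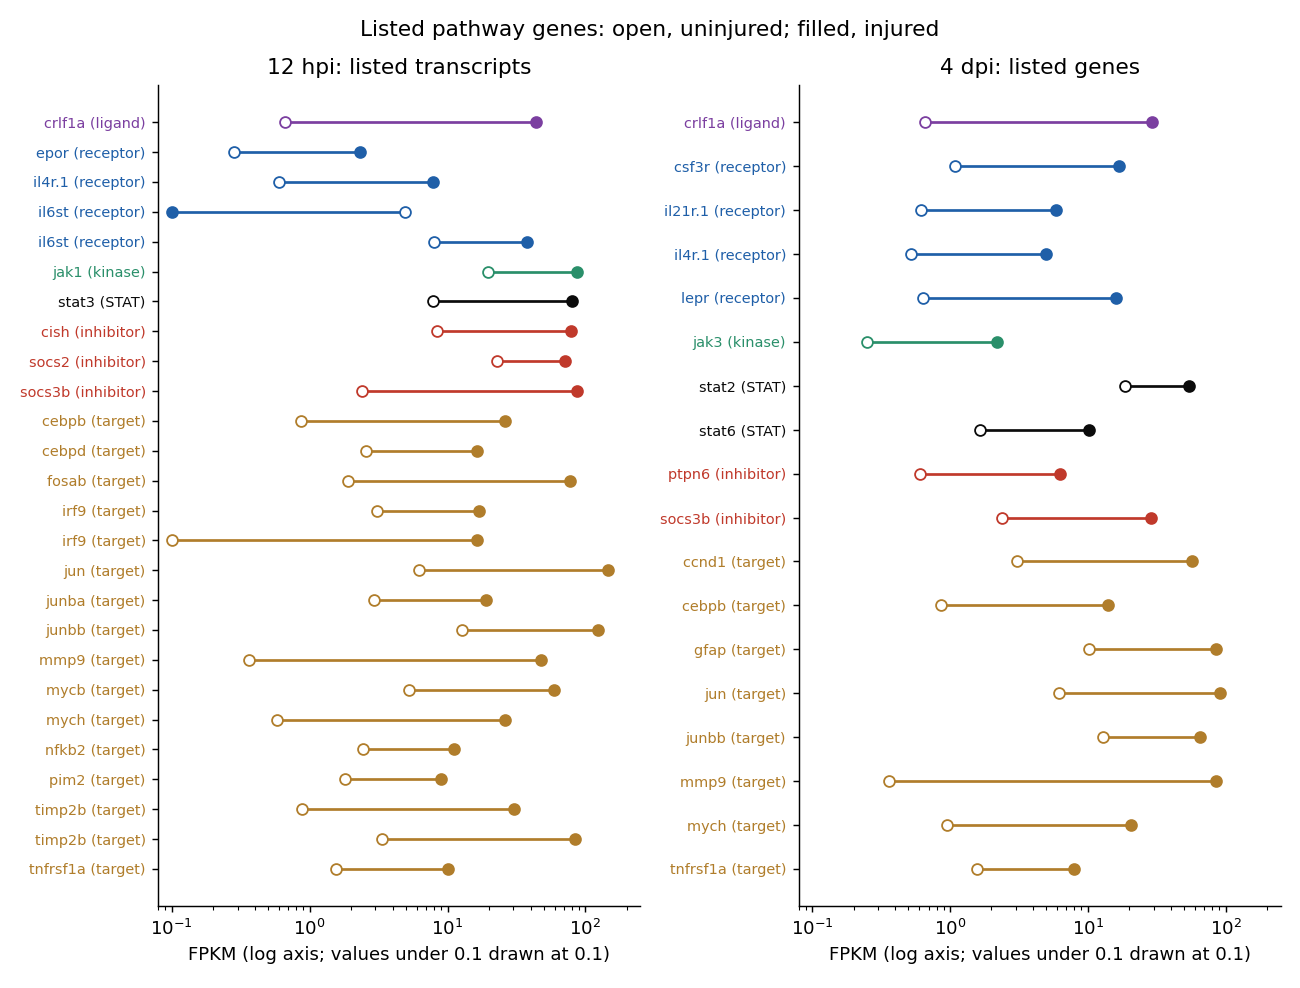
FPKM (log axis) in uninjured retina (open circles) and injured retina (filled circles) of pathway features listed at 12 hpi (left, 1 row per transcript) and at 4 dpi (right, 1 row per gene), coloured by role. All rows move to higher values after injury except 1 *il6st* transcript, which goes from 4.89 FPKM to 0. The direction of each row was set by the list it came from, and pathway genes not listed are not drawn.

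A list of 33 candidate target genes of STAT3, drawn mainly from work in mammals, had 14 genes listed as higher at 12 hpi and 8 at 4 dpi, and none as lower. Like the other lists, it was written with earlier results of these data known, so its counts are not independent of them. Of all identifiers, 1.16% and 2.76% were listed as higher at those times and 0.712% and 1.78% as lower. With shares that small, a list of 33 genes could hold none listed as lower in any case. At 12 hpi the listed targets included *fosab* (1.89 and 77.3 FPKM), *jun* (6.21 and 147.1 FPKM), *junbb* (12.8 and 122.9 FPKM), and *junba* (2.91 and 19.1 FPKM), which encode AP-1 subunits. They also included *cebpb* (0.861 and 26.3 FPKM) and *cebpd* (2.58 and 16.3 FPKM), transcription factors of the acute-phase response, and the Myc genes *mycb* (5.25 and 59.6 FPKM) and *mych* (0.579 and 26.0 FPKM). The remaining 6 were *irf9*, *mmp9*, *nfkb2*, *pim2*, *timp2b*, and *tnfrsf1a*, from a log2 ratio of 2.14 for *nfkb2* to 6.69 for *mmp9*, except that 1 of the 2 *irf9* transcripts, near 0 in uninjured retina, was above that. Summed, the *irf9* transcripts had 3.07 and 33.1 FPKM. At 4 dpi, *ccnd1*, the cyclin of G1 phase, went from 3.09 to 57.4 FPKM and *gfap*, an intermediate filament gene of MG, from 10.2 to 84.5 FPKM, and neither was in the 12 hpi tables. Many of these genes are known to be induced by other pathways too, so the list does not single out Stat3.

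With cyclopamine, 19 of the 125 other pathway genes (15.2%) were listed as higher and 1 (0.800%), *hif1ab*, as lower, against 2.04% and 2.26% of all identifiers. The higher ones included 1 ligand gene (*crlf1a*), 3 receptor genes (*il11ra*, *il4r.1*, and *lepr*), the inhibitor *ptpn6*, and 13 candidate targets. *socs3b* was therefore on the higher list of the 4 dpi retina and on that of the treated retina, and *stat3* on neither. Both lists use the same uninjured library, and being in both does not show that the levels were alike.

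The annotation in the deposited tables puts an SH2 domain (InterPro IPR000980) and the term JAK-STAT cascade on both members. The SH2 domain, which binds phosphorylated tyrosines, was on 5 of the 306 genes listed as higher at 12 hpi that have an InterPro entry (1.63%), namely *stat3*, *socs3b*, *cish*, *socs2*, and *jak1*. All 5 are on the pathway lists used above, while the term JAK-STAT cascade was on *stat3* and *socs3b* alone of them. Listed as lower with this domain were *grb10a* (35.4 and 4.41 FPKM), *SHC3*, and *syk*, of 186 genes (1.61%). At 4 dpi, 11 of 749 genes listed as higher had it (1.47%), among them *socs3b*, *stat2*, *stat6*, *jak3*, and *ptpn6*. The other 6 (*blnk*, *grapa*, *inpp5d*, *lcp2a*, *lyn*, and *sla1*) are best known from signaling in blood cells. Of 488 genes listed as lower at 4 dpi, 5 had it (1.02%). The SOCS box was on *socs3b*, *cish*, and *socs2* at 12 hpi and on *socs3b* alone of the 749 genes at 4 dpi. The SH2 domain was thus about as frequent among genes listed as lower as among those listed as higher at 12 hpi. The share of all genes with an SH2 domain or a SOCS box was not analysed, so these counts do not show an excess.

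The term regeneration, in any form, was on *stat3* and on 5 more of the 266 genes listed as higher at 12 hpi that carry terms, a search chosen after the values were seen. These were *gap43*, a growth cone gene (3.89 and 36.5 FPKM), *hbegfa*, which encodes an EGF receptor ligand (0.621 and 8.33 FPKM), *il6st*, *junbb*, and *mmp9*. Of 170 genes listed as lower, 1 carried it, again *il6st* through its other transcript. The share of all genes with such terms was not analysed here.

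Markers of other cells were listed beside these genes. Of all identifiers, the higher lists hold 1.16% (12 hpi), 2.76% (4 dpi), and 2.04% (cyclopamine), and the lower cyclopamine list 2.26%. The 12 hpi table is per transcript, with 386 higher genes, and the 4 dpi table is per gene, with 893. Marker counts can therefore differ between these tables without a change in cells, and whether such cells changed in number was not tested. Of 20 microglia and macrophage markers, 1 was listed as higher at 12 hpi (*coro1a*, 3.32 and 11.7 FPKM) and 11 at 4 dpi. The summed level of the 11 went from 81.3 to 549.0 FPKM, and none of them was at 0 in either library. Every summed level in this paragraph holds only markers listed as higher, so its direction was set by the list. Unlisted markers have no values. *csf3r* is on this list and on that of receptors. Of 10 MG markers, none was listed at 12 hpi. Listed at 4 dpi were *gfap* (10.2 and 84.5 FPKM), also counted above as a candidate target, and *apoeb* (233.6 and 2111 FPKM). Their summed levels of 243.8 and 2195 FPKM are therefore nearly all *apoeb*, and the other MG markers were not listed at 4 dpi. Of 5 neutrophil markers, 1 (*srgn*) was listed as higher at each time. Of 17 lens markers, 5 were listed as higher at each time, with summed levels of 3.04 FPKM in uninjured retina, 277.9 at 12 hpi, and 144.4 at 4 dpi, and *cryaa*, *crygm3*, and *lim2.1* at 0 in uninjured retina. Of 6 red blood cell markers, *slc4a1a* was listed as higher at 12 hpi (0.540 and 2.68 FPKM) and *alas2* as lower with cyclopamine. Globin genes outside that list, chosen after their values were seen, were also listed as higher, namely *ba1* (53.7 and 349.6 FPKM) and *HBZ* (0 and 5.38 FPKM) at 12 hpi and *hbz* (0 and 1.202 FPKM) at 4 dpi. No marker of skeletal muscle or retinal pigment epithelium was in any table used here. With cyclopamine, 6 of the microglia and macrophage markers, 2 of MG, 1 of neutrophils, and 5 of lens were listed as higher. The part of these cells in the levels of *stat3* and *socs3b* was not tested. In whole retina, more cells that express a gene and more RNA of it per cell cannot be told apart.

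The tables do not allow the tissue itself to be checked in full. Of 16 markers of retinal neurons, *rcvrna*, a photoreceptor gene, was listed as lower at 12 hpi and *opn1lw2* as lower with cyclopamine. Of all identifiers, 0.712% and 2.26% were in those lists. The *rcvrna* values, 237.4 FPKM before injury and 63.6 FPKM at 12 hpi, are of 1 of 2 annotated transcripts. Their direction was set by the list, and the level of the whole gene was not measured here. There were 386 higher and 222 lower genes at 12 hpi, 893 and 573 at 4 dpi, and 655 and 747 with cyclopamine. Total reads per library are not given in these tables, so the counting error of an FPKM value cannot be given.

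In the authors' tables, with the build GRCz10 named in the processing notes, *stat3* lies on chromosome 3 from 16880864 to 16957645 and *socs3b* on chromosome 12 from 34157075 to 34176402, both on the plus strand. Whether these positions start at 0 or 1 is not stated. No other gene listed at 12 hpi, or at 4 dpi without cyclopamine, overlaps either locus. The cyclopamine lists give no positions, so their genes were not checked for overlap. In the gene order of a later RefSeq assembly (GRCz12tu), *stat3* lies beside *stat5a*, and of the 10 nearest genes of *stat3* in that order, 1 was listed, *kcnh4a*, a potassium channel gene listed as lower at 4 dpi without and with cyclopamine. Of the 10 nearest to *socs3b*, none was listed. Each deposited list of higher or lower genes holds between 0.712% and 2.76% of all identifiers, so these counts do not set the loci apart.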

How the data were processed

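Total RNA of whole retina was sequenced in 4 libraries, 1 per condition, grouped by the sample labels. The submitters' processing notes name Bowtie2 2.2.2, TopHat2 2.1.0, Cufflinks 2.2.1, and GRCz10; the filter and the scaling between libraries are not given in the sources used here. The authors deposited FPKM values per transcript (12 hpi) and per gene (4 dpi) beside uninjured retina, for called features, and 2 lists without values for cyclopamine. Further columns hold the authors' fold changes, p-values, and q-values of 1 library against another, which were not used.

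From the deposited FPKM, log2((later + 0.1)/(uninjured + 0.1)) was computed with python 3.11.15 and pandas 2.3.3, and where a gene had several transcripts at 12 hpi, the one with the highest mean FPKM stood for it. Ratios, ranks, and distances were tested on simulated data. Genes named are the members, listed pathway genes, the 3 nearest in distance, and rank neighbours; others were chosen after their values were seen. The members and lists were chosen with earlier results of these data known. A value counted as moved beyond 1.5-fold. A search for promoter motifs and protein features was planned, and no sequence was used here. Of the pathway genes in the counts, 1 is not reported here by name.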

Additional observations from a re-analysis of the deposited data

How the results depend on the processing

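With 1 library per condition there is no replicate to leave out. The log2 ratios of *stat3* at 12 hpi (3.19 to 3.34) and of *socs3b* at 12 hpi (4.71 to 5.19) and 4 dpi (3.14 to 3.60) moved by less than 1.5-fold with a pseudocount of 1 or none, and adding the same value to both libraries cannot turn them. Each member had 1 listed transcript, so the choice of transcript changed nothing. The ranks did move. With a pseudocount of 1 FPKM they were 48 for *stat3* and 18 and 147 for *socs3b* at 12 hpi and 4 dpi, and among genes with at least 1 FPKM in uninjured retina 28, 7, and 91 (of 194 and 592 genes), since genes near 0 there fall behind or leave. By difference in FPKM they were 31 and 24 at 12 hpi, and 322 for *socs3b* at 4 dpi. Requiring 1 FPKM in both libraries left 10 of 19 pathway genes listed as higher at 4 dpi and 0 in place of 1 listed as lower at 12 hpi, by construction. Of 36 alternative values, 26 stayed within these limits and 10 moved. For genes with 1 annotated transcript, chosen after seeing the data, the median ratio of 4 dpi to 12 hpi was 1.07. Matching by identifier added 1 gene at 4 dpi, *si:ch211-74m13.3* (log2 ratio 2.55), named icam3 in the name table. The alternatives for promoter motifs and for *stat3* at 4 dpi were not run. No paired analysis was possible because there is a single library per condition.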

Other observations

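Annotation terms with the word regeneration were searched for after the values were seen. They were on 17 of the 668 annotated genes listed as higher at 4 dpi (2.54%) and on 0 of the 410 listed as lower. Any such term counted, so these genes need not carry the same ones as *stat3*. The share of all genes with such terms was not analysed, so these counts do not show an excess. Of the 17 genes, *gap43*, *hbegfa*, *junbb*, and *mmp9* were also listed as higher at 12 hpi. The others had varied known roles. Among them, *apoeb*, which encodes a lipid carrier, went from 233.6 to 2111 FPKM, and the lysosomal protease genes *lgmn* and *ctsba* from 32.0 to 132.1 and from 22.4 to 95.3 FPKM. *top2a*, a topoisomerase of dividing cells, went from 0.567 to 26.8 FPKM, and *insm1a*, a zinc finger repressor of neural progenitors, had 2.83 and 35.0 FPKM. *sox2*, a transcription factor of neural stem cells, had 7.54 and 23.9 FPKM, and *hdac1*, a histone deacetylase, had 30.4 and 83.1 FPKM. The chemokine receptor gene *cxcr4b* had 1.11 and 14.5 FPKM. Each value comes from 1 library.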
